A study of Mus musculus with 53 samples.

Results

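Ribosome-bound RNA was set against input RNA, gene by gene, in the hearts of sham-operated CAG mice. TRAP (translating ribosome affinity purification) libraries hold the RNA that came down with tagged ribosomes, and input libraries hold the total cytoplasmic RNA of the same kind of heart. The genes described are those of the deposited table at 1 RPKM or more (reads scaled to library size and listed transcript length) in at least 2 of the 4 libraries, which are 2 of CAG sham TRAP and 2 of CAG sham input. They number 10550 of 34306 genes in the table, and each has a listed length, from 53 to 106824 bases with a median of 2603. At the edge of that rule, Gm11266, Mlst8 and Mll1 came in with a second highest value of 1.00 RPKM, and Zfp828, Apbb1ip and Usp1 stayed out with 0.999, 0.999 and 0.998 RPKM. The mice were adult males, in which the chest was opened and the ascending aorta freed without being tied. Both fractions came from mice that carry the ribosome tag, which the first deposit's labels place in every cell lineage, on a mixed 129/C57BL background. The labels of these libraries themselves give the tissue, the age class and the surgery. The other groups used for comparison were CAG band TRAP and CAG band input (aorta tied, 2 libraries each), CAG TRAP and CAG input without surgery (1 each), and Tie2 TRAP and Tie2 input without surgery (tag in endothelial cells, 1 each). RNA was pooled before library construction, and separate mice are not stated for the 2 libraries of a fraction, so p-values reflect a library-to-library spread that may be technical.

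Cytosolic ribosomes read messenger RNA from the start codon to the stop codon, and a transcript that carries many of them is pulled down with any tagged one among them. Transcripts made and translated inside mitochondria are served by separate mitochondrial ribosomes, and RNAs that stay in the nucleus meet no cytosolic ribosome. Messages differ in how often ribosomes start on them. Those of housekeeping proteins tend to be short and heavily used, and some, ferritin among them, are held back by proteins that bind the RNA.

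The recovered read totals were 35411590 and 41816186 in TRAP, against 48867104 and 33043255 in input. Mitochondrially encoded genes took 0.148 and 0.295% of the reads on member genes in TRAP, against 15.5 and 14.1% in input, which is the order the labels of the fractions call for. Of the heart label's defining genes, Tnnt2, cardiac troponin T, stood at 20312 and 18905 RPKM in TRAP, against 16669 and 16458 RPKM in input. The median absolute log2 difference over member genes was 0.09 between the 2 TRAP libraries and 0.08 between the 2 input libraries, against 0.32 to 0.34 between a TRAP and an input library.

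Of the 10550 members, 1752 were higher in TRAP and 2613 lower (limma on log2(RPKM + 1) over 12 libraries, adjusted p under 0.05). Over all 11654 genes tested the same rule called 15.1% higher and 24.5% lower, and over the members 16.6 and 24.8%. The differences were mostly small, with 43 members higher and 341 lower by more than 1 on the log2 scale, a median log2 ratio of -0.07 and quartiles of -0.37 and 0.26. The level rule admitted 741 members that were at 1 RPKM or more in both input libraries and in neither TRAP library, and 74 the other way round. Such genes had to differ, and without them 1722 of 9735 were called higher and 2057 lower. The split between higher and lower rests on the scaling. It was 1107 higher and 3738 lower when the mitochondrial, haemoglobin and 20 most abundant genes were left out of the library totals, and 1951 higher and 1820 lower with quantile normalization. The median of all genes tested was -0.09 as deposited, -0.21 under the first of these and 0.05 under the second, so each ratio is relative to a zero that moves by that much. Leaving out 1 library lowered both counts by over 1.5 times. Without TRAP library 1 they were 851 higher and 1330 lower, without TRAP library 2 791 and 1449, without input library 1 670 and 1195, and without input library 2 850 and 1339. Such a fit assumes that the fraction's lone library varies like the other groups. Square brackets after a count in a gene list give its range over these 4 fits.

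**Figure D1:**
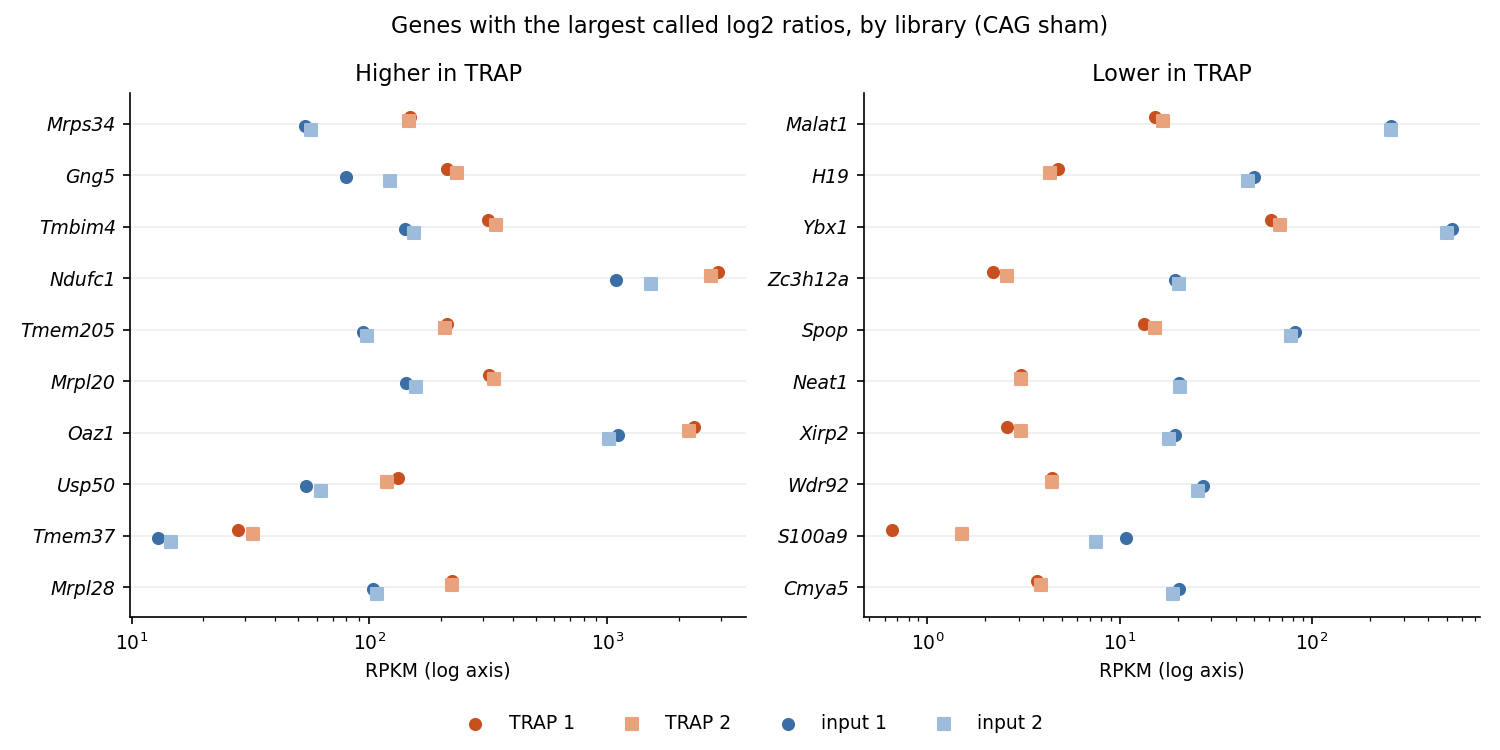
RPKM on a log axis in each of the 4 CAG sham libraries (TRAP in orange, input in blue, circles for library 1 and squares for library 2) for the 10 called genes with the most positive and the 10 with the most negative log2 ratio among genes of 500 bases or longer at a mean of 5 RPKM or more, without mitochondrially encoded, haemoglobin, Rik and Gm genes. In every row the TRAP points lie apart from the input points, with log2 ratios of 1.07 to 1.40 on the left panel and -3.92 to -2.10 on the right.

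The genes of 500 bases or longer and 5 RPKM or more that were highest in TRAP relative to input included 6 of mitochondrial ribosomes and respiratory complexes and 3 of membrane proteins. Mrps34, of the mitochondrial ribosome's small subunit, stood at 148 and 147 RPKM in TRAP, against 53.4 and 57.0 RPKM in input, log2 ratio 1.40 (SE 0.29, limma, adjusted p = 0.00934). Both TRAP values lay above both input values, but the call held in only 1 of the 4 fits that left out a library. Gng5, a gamma subunit of heterotrimeric G proteins, stood at 213 and 234 RPKM in TRAP, against 79.8 and 122 RPKM in input (1.17, adjusted p = 0.00934 by limma), and its call held in 2 of 4. Except for Oaz1, the other leaders were called in all 4 of those fits. Tmbim4, a membrane protein that restrains cell death, stood at 316 and 340.5 RPKM in TRAP, against 142 and 154 RPKM in input. Ndufc1, a subunit of complex I, stood at 2931 and 2731 RPKM in TRAP, against 1084 and 1530.2 RPKM in input, where input library 1 lay well below input library 2. Tmem205 stood at 212 and 207 RPKM in TRAP, against 93.7 and 97.6 RPKM in input, Usp50 at 132 and 118 RPKM in TRAP, against 53.9 and 62.3 RPKM in input and Tmem37 at 27.9 and 32.5 RPKM in TRAP, against 12.96 and 14.6 RPKM in input. Oaz1, the antizyme that marks ornithine decarboxylase for degradation and is itself made through a ribosomal frameshift, stood at 2323 and 2215 RPKM in TRAP, against 1105 and 1014 RPKM in input, log2 ratio 1.10 (SE 0.30, limma, adjusted p = 0.0257). Its pair of values in each fraction did not overlap the other, yet the call was lost in all 4 fits that left out a sham library. Mrpl20 and Mrpl28, of the mitochondrial ribosome's large subunit, had log2 ratios of 1.12 and 1.07, and Cox7c and Cox6c, of cytochrome oxidase, 1.06 and 1.05. All 12 leaders lay between 1.05 and 1.40, so the upper end of the distribution was narrow.

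The lower end reached much further, also without the mitochondrially encoded and haemoglobin genes, which are not counted among the leaders here. The noncoding leaders were the nuclear Malat1 (15.2 and 16.8 RPKM against 256 and 256 RPKM, TRAP against input) and Neat1 (3.08 and 3.07 RPKM against 20.2 and 20.6 RPKM), and the imprinted H19 (4.79 and 4.33 RPKM against 49.7 and 46.4 RPKM). Their log2 ratios were -3.92, -2.39 and -3.14, and the other leaders were coding. Ybx1, which encodes a cold shock domain protein that packages messenger RNA and can repress its translation, stood at 60.9 and 68.0 RPKM in TRAP, against 532 and 504 RPKM in input, log2 ratio -2.99 (SE 0.10, limma, adjusted p = 1.85e-05). The mean in TRAP was 8.03-fold below that in input, and the 4 values fell into separate pairs. Zc3h12a, the RNase Regnase-1 that cuts cytokine messages, stood at 2.20 and 2.59 RPKM in TRAP, against 19.3 and 20.2 RPKM in input (-2.61, SE 0.11). Spop, the substrate adaptor of a cullin ubiquitin ligase, stood at 13.3 and 15.2 RPKM in TRAP, against 81.1 and 78.1 RPKM in input (-2.40, SE 0.09). These 3 genes are 1628 to 3063 bases long as listed, and lay -3.08 to -2.25 on the log2 scale from the median of their length bin. Wdr92, a WD repeat protein, had a log2 ratio of -2.33, and S100a9, a calcium-binding protein of neutrophils, stood at 0.653 and 1.52 RPKM in TRAP, against 10.7 and 7.52 RPKM in input. The long muscle genes Xirp2 and Cmya5, of intercalated discs and of the sarcomere's edge, had log2 ratios of -2.37 and -2.10, and Tacc2 had -1.90. All 11 genes named here were called in each of the 4 fits that left out a sham library (limma, adjusted p under 0.05). Of the 7 members of the list of nuclear and imprinted long noncoding RNAs, 3 were lower and 1 higher, 2810008D09Rik with a log2 ratio of 0.32, a call lost in all 4 of those fits.

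The ratio fell with listed length across nearly the whole range. Members of 500 to 1000 bases had a median log2 ratio of 0.32, those of 1000 to 1500 bases 0.21, of 1500 to 2000 0.10, of 2000 to 3000 -0.04, of 3000 to 4000 -0.16, of 4000 to 6000 -0.28, of 6000 to 10000 -0.44 and of 10000 or more -0.67. Under 500 bases the median was 0.25, and that bin of 611 members is mixed. It holds mitochondrial transfer RNAs, other small RNAs and Gm predicted genes. Of 1007 Gm members only 618 were 500 bases or longer, so the rest make up most of that bin. The counts followed: 395 of 1007 members of 500 to 1000 bases were called higher and 81 lower, whereas 14 of 738 members of 6000 to 10000 bases were called higher and 437 lower, and of 102 members of 10000 bases or more 0 were higher and 85 lower. The middle of the range sat near zero, with 331 higher and 416 lower of 2187 members of 2000 to 3000 bases.

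**Figure D2:**
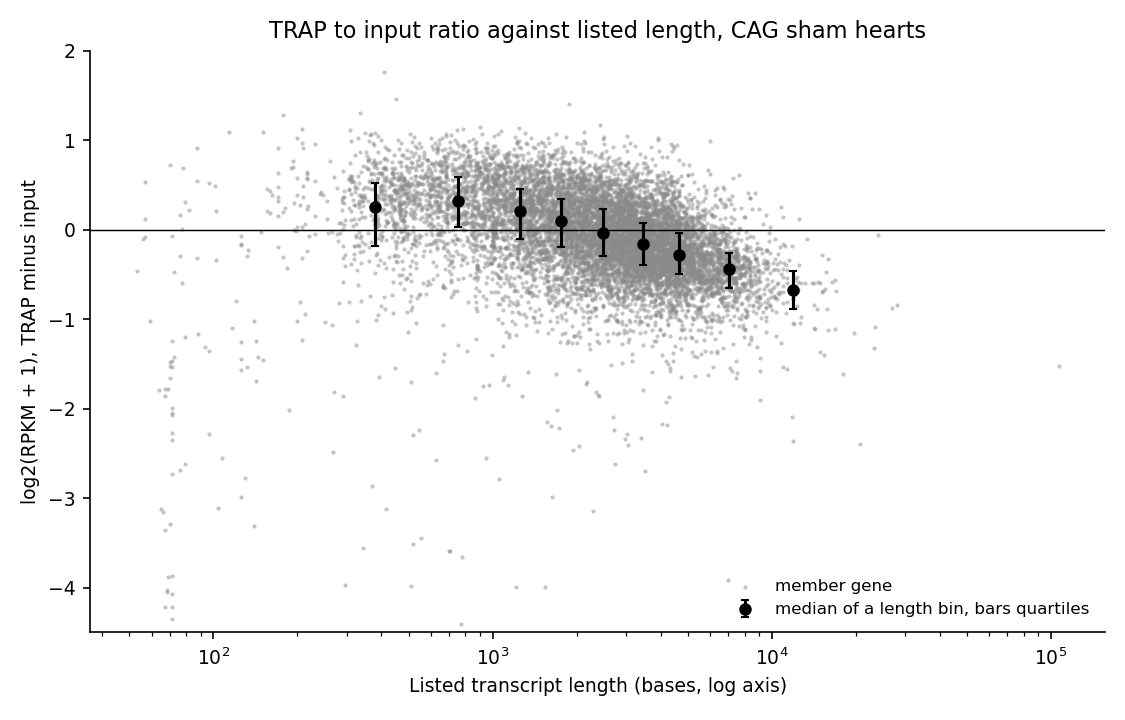
The log2 ratio of TRAP to input for each member gene against its listed length on a log axis, with the median (black points) and quartiles (bars) of 9 length bins, and 26 members lie outside the vertical range shown. The bin medians run from 0.32 at 500 to 1000 bases to -0.67 at 10000 bases or more, and single genes spread widely around them.

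Length went with a modest share of the spread. Over 5156 members of 500 bases or longer at a mean of 5 RPKM or more, the log2 ratio fell by 0.20 per doubling of length, Spearman's rho was -0.45, and a straight line on log2 length took up 9.23% of the variance. With no minimum length the slope was -0.07. These are descriptions across genes, which are not independent replicates. Each of the 4 combinations of a TRAP with an input library gave a like slope, -0.22 for TRAP 1 over input 1, -0.18 for TRAP 2 over input 2, -0.19 for TRAP 1 over input 2 and -0.22 for TRAP 2 over input 1. Within a fraction the slope was -0.01 between the TRAP libraries and 0.03 between the input libraries. With 2 libraries against 2 the smallest two-sided p of an exact permutation test is 0.333, so the slope was not tested. The input pair had a small trend of its own, with a rho of 0.25 on length and bin medians from -0.06 at 500 to 1000 bases to 0.03 at 6000 to 10000 bases, input 1 over input 2. Counted as reads outside mitochondrial genes, members under 2000 bases took 66.3 and 65.5% in TRAP, against 56.0 and 57.0% in input, and members of 4000 bases or more took 10.8 and 11.2% in TRAP, against 17.8 and 17.1% in input. The middle read lay on a transcript of 1249 and 1289 bases in TRAP, against 1718 and 1661 bases in input.

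**Figure D3:**
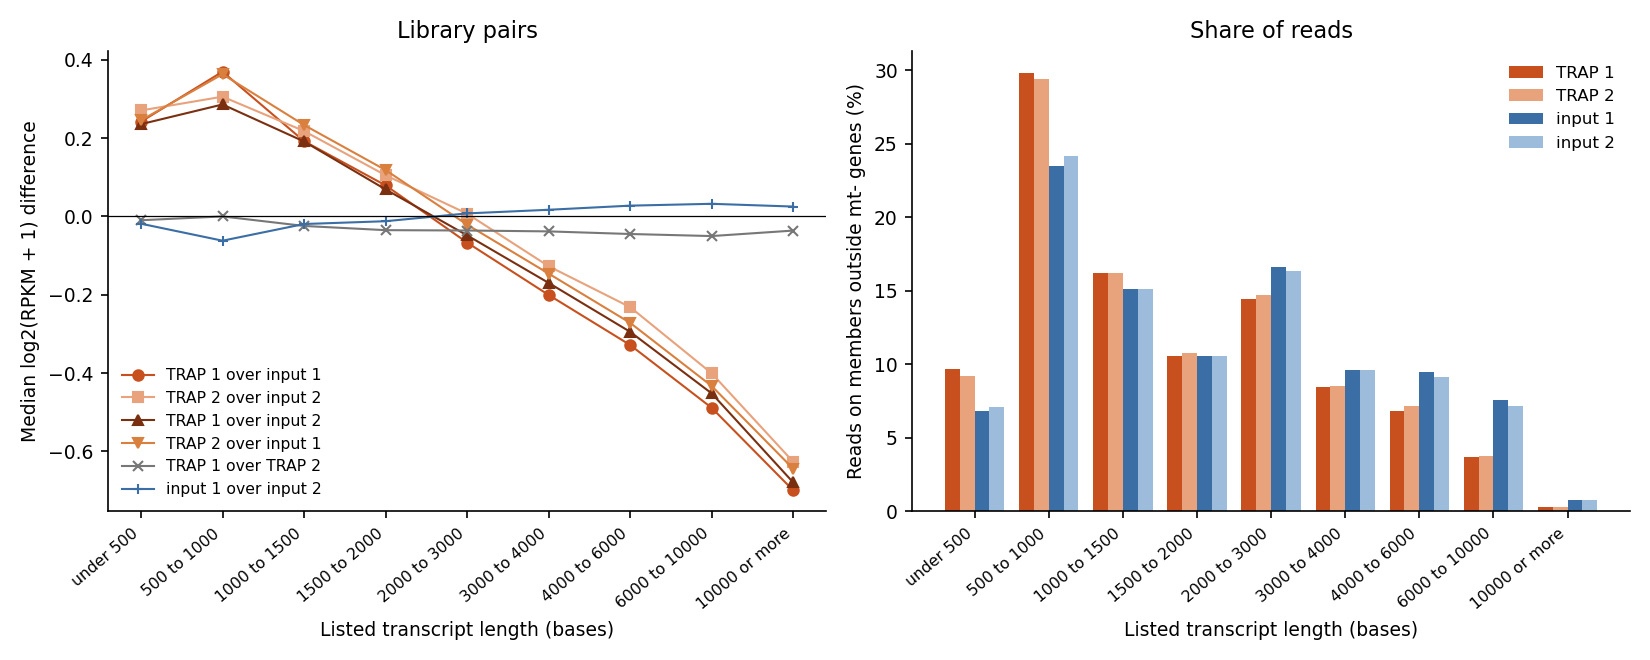
Left, the median log2(RPKM + 1) difference of each library pair in 9 bins of listed length, 4 pairs of a TRAP with an input library and 2 pairs within a fraction. Right, the percentage of reads on members outside mitochondrially encoded genes that fell in each bin, by library. The 4 TRAP to input lines fall together beyond 1000 bases while the within-fraction lines stay between -0.06 and 0.03.

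Abundance moved with the ratio as well, and the length trend was present at each level. Among members of 500 bases or longer, those under a mean of 5 RPKM had a median log2 ratio of -0.22 and those at 100 RPKM or more 0.38, with median lengths of 3409 and 1097 bases. The slope per doubling of length was -0.15 under 5 RPKM, where the added 1 RPKM pulls ratios toward zero, -0.20 from 5 to 20 RPKM, -0.19 from 20 to 100 and -0.15 at 100 or more. The most abundant members of the long classes included lower and uncalled genes. At 6000 to 10000 bases, Myh6, the main heavy chain of adult cardiac myosin, stood at 1796 and 1721 RPKM in TRAP, against 3623 and 3427 RPKM in input, and Myh7, the slow heavy chain, at 463 and 441 RPKM in TRAP, against 914 and 894 RPKM in input, both called lower. At 10000 bases or more, Hspg2, the basement membrane proteoglycan perlecan, stood at 8.85 and 8.53 RPKM in TRAP, against 16.5 and 16.2 RPKM in input, and was called lower. At 4000 to 6000 bases, Atp2a2, the calcium pump of the sarcoplasmic reticulum, stood at 889 and 949.6 RPKM in TRAP, against 766 and 709.6 RPKM in input, above its length class by 0.60 though not called (adjusted p = 0.0973 by limma).

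**Figure D4:**
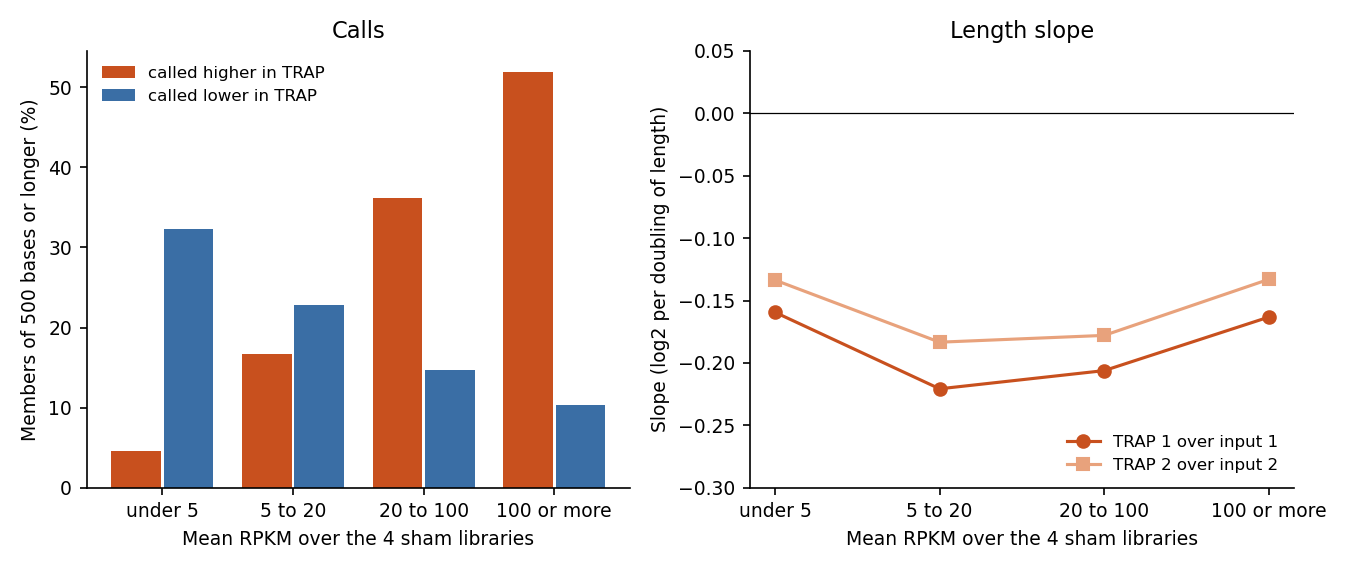
Left, the percentage of members of 500 bases or longer called higher (orange) and lower (blue) in TRAP in 4 classes of mean RPKM over the sham libraries. Right, the change of the log2 ratio with each doubling of listed length in the same classes for the pairs of like number. Called-higher genes run from 4.54% under 5 RPKM to 52.0% at 100 RPKM or more, and every slope lies below 0.

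With the length trend of each library removed, 1209 members were called higher and 1934 lower, of which 993 and 1664 were also called in that direction without the removal, which is 56.7% of the 1752 and 63.7% of the 2613. No called gene turned to the opposite call (0 of 4365). Among 3916 members under 2000 bases, 30.2% were called higher before and 12.8% after the removal, and among 2629 of 4000 bases or more 46.9% were called lower before and 18.0% after.

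Some genes went against the length of their transcript. Among members over 6000 bases the called genes with the most positive ratios were Iqsec2, an exchange factor for small GTPases (50.1 and 49.4 RPKM against 24.2 and 24.7 RPKM, TRAP against input), Mrpl13 of the mitochondrial ribosome (35.3 and 37.1 RPKM against 22.1 and 24.2 RPKM), Dcaf11, a ubiquitin ligase adaptor (21.7 and 20.4 RPKM against 13.9 and 13.6 RPKM), and Intu, a planar cell polarity effector (1.93 and 2.03 RPKM against 1.27 and 1.05 RPKM). Their log2 ratios were 1.00, 0.63, 0.58 and 0.47. Several respiratory chain genes listed with unusually long transcripts also lay far above their length class: Ndufb7 (4435 bases listed) stood at 609 and 613 RPKM in TRAP, against 303 and 335 RPKM in input, Ndufb2 (4371 bases) at 167 and 141 RPKM in TRAP, against 67.9 and 90.7 RPKM in input, and Cox6c (3038 bases) at 3733 and 3290.4 RPKM in TRAP, against 1489 and 1930.2 RPKM in input. The table gives 1 transcript per gene, and whether that transcript is the one made in heart was not tested. The calls of Mrpl13 (0 of 4), Intu (1 of 4) and Tmco1 (1 of 4) did not hold in every fit that left out a library. Med28, of the Mediator complex, and Tmco1, an endoplasmic reticulum membrane protein, of 4568 and 4474 bases, lay 1.23 and 1.20 above their class. In the other direction, the lowest in TRAP among genes of 500 to 1000 bases at 5 RPKM or more, leaving out mitochondrially encoded, haemoglobin, Rik and Gm genes, were S100a9, the ferritins Fth1 and Ftl1 and Aif1, a macrophage calcium-binding protein at 4.20 and 3.99 RPKM in TRAP, against 9.82 and 12.04 RPKM in input.

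Genes of the respiratory chain, whose products work inside mitochondria but are made on cytosolic ribosomes, were mostly called higher in TRAP and lay above the median of their length class. Of 38 subunits of complex I, the first proton pump of the respiratory chain, 32 [24 to 28] were called higher and 0 lower, with a median log2 ratio of 0.70 and a median distance of 0.43 from the median of each gene's length bin. Ndufa1 stood at 10693 and 9784 RPKM in TRAP, against 5819 and 6129 RPKM in input, log2 ratio 0.78 (SE 0.10, limma, adjusted p = 0.00205). Ndufa13, a subunit also known as GRIM-19, stood at 1705 and 1799.6 RPKM in TRAP, against 867 and 898 RPKM in input, and Ndufv3, an accessory subunit of the NADH-binding end, at 3484 and 3455 RPKM in TRAP, against 1639.9 and 1783 RPKM in input. For all 3 the TRAP values lay above the input values. Of 45 nuclear genes of complexes II to V, 32 [22 to 27] were higher and 0 lower (median 0.58, distance 0.37). Cox7a1 and Cox8b, muscle isoforms of cytochrome oxidase subunits, stood at 61089 and 59037 RPKM in TRAP, against 28832 and 28775 RPKM in input, and at 29514 and 29884 RPKM in TRAP, against 14271 and 15671 RPKM in input. Cox6a2, the muscle form of another subunit, stood at 33957 and 32567 RPKM in TRAP, against 18038 and 17771 RPKM in input, and these are among the most abundant messages of the heart. Quantile normalization sets the most abundant gene equal in every library, and Cox7a1 then had a log2 ratio of 0.00. Of 4 complex I assembly factors 2 were higher, Ndufaf2 and Ndufaf3, with log2 ratios of 0.76 and 0.67. Over all genes tested 15.1% were called higher. With the length trend removed 21 of the complex I genes and 24 of the others were called higher, and 1 of the others lower.

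The mitochondrial ribosome and the import machinery lay at a like height. The share called higher over all genes tested was 15.1%. Of 48 large subunit members 32 [19 to 24] were higher and 0 lower (median 0.57, distance from length class 0.39), and of 31 small subunit members 21 [11 to 15] and 0 (median 0.46, distance 0.37). Mrpl54 stood at 405 and 416 RPKM in TRAP, against 194 and 209 RPKM in input, and Mrps12, whose bacterial counterpart guards decoding accuracy, at 114 and 120.4 RPKM in TRAP, against 62.1 and 65.3 RPKM in input. Mrpl42, abundant at 1031 and 946 RPKM in TRAP, against 849 and 927 RPKM in input, was not called (adjusted p = 0.206 by limma). Of 27 genes of protein import, 20 [14 to 16] were higher and 1 lower. Dnajc19, a co-chaperone of the import motor, stood at 68.2 and 66.6 RPKM in TRAP, against 30.2 and 34.9 RPKM in input, log2 ratio 1.03 (SE 0.11, limma, adjusted p = 0.000969). Tomm22, the receptor of the outer membrane pore, stood at 243 and 254 RPKM in TRAP, against 136 and 136 RPKM in input, and Tomm7 at 1660.2 and 1587 RPKM in TRAP, against 894 and 944 RPKM in input. Within complex I, whose listed lengths ran from 419 to 4435 bases, the slope per doubling of length was -0.06, and within the large and small mitochondrial ribosome lists -0.10 and -0.04. It was -0.16 within complexes II to V, -0.13 within the import list and -0.39 within the citric acid cycle, and differences between slopes were not tested.

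Over all genes tested 15.1% were called higher and 24.5% lower, and the fuel pathways are read against these shares. Of 26 genes of fatty acid oxidation, the heart's main fuel route, 4 [1 to 1] were higher and 0 lower, a share higher of 15.4% that was near that of all genes, with a median of 0.04. Eci1, an isomerase for unsaturated fatty acids, stood at 529 and 505 RPKM in TRAP, against 372 and 367 RPKM in input. The citric acid cycle had 4 higher [1 to 2] and 1 lower of 17, a share higher of 23.5%. The 3 with the highest ratios, Sdhb, Sdhc and Sdhd, are also subunits of complex II, with log2 ratios of 0.57, 0.38 and 0.70, and the calls of Sdhc and Sdhd held in 0 and 3 of the 4 fits that left out a library. By contrast Ogdh, of the oxoglutarate dehydrogenase, stood at 213 and 209 RPKM in TRAP, against 289 and 294 RPKM in input (-0.47, called lower). The medians of both lists change sign under the rescaling without abundant genes (-0.11 and -0.06) and under quantile normalization (-0.10 and -0.16), and their calls then become 1 higher and 9 lower, and 2 higher and 6 lower, under the rescaling. Mitochondrial transfer RNA synthetases had 3 higher [0 to 2] and 0 lower of 14, Fars2 being 1 of the higher ones at 48.2 and 45.1 RPKM in TRAP, against 29.3 and 30.0 RPKM in input, and the cytosolic synthetases 0 higher and 7 lower [0 to 1] of 20, with Eprs at 10.4 and 9.56 RPKM in TRAP, against 16.1 and 15.9 RPKM in input. Glycolysis had 0 higher and 4 lower [1 to 2] of 17, a share lower of 23.5% that was near that of all genes. That nearness rests on the scaling. Under the rescaling 11 of the 17 were lower, and under quantile normalization 9, where 3738 and 1820 of the 10550 members were. The median of -0.21 was then -0.38 and -0.37. Among the 4 lower as deposited was Ldha, lactate dehydrogenase A, at 263 and 268 RPKM in TRAP, against 321 and 316 RPKM in input. Of these single calls, those of Ldha (0 of 4 fits that left out a library), Fars2 (1 of 4) and Eprs (2 of 4) did not hold throughout.

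Genes of cytosolic ribosomal proteins are known for a run of pyrimidines at the very start of the message, through which growth signals govern their translation. Of 83 members, 39 [11 to 17] were higher in TRAP and 1 lower, with a median of 0.43 and a median distance of 0.16 from the length class. That is 47% higher, where 15.1% of all genes tested were called higher. The calls were 19 higher and 2 lower when the library totals left out abundant genes, and 11 and 2 with the length trend removed. Of the 10550 members, 1107 and 1209 were higher in those 2 fits. Rpl35 stood at 117 and 117 RPKM in TRAP, against 72.1 and 68.1 RPKM in input, log2 ratio 0.73 (SE 0.08, limma, adjusted p = 0.00126). Rpl41, the smallest ribosomal protein, stood at 1960.0 and 1969 RPKM in TRAP, against 1038 and 1139 RPKM in input. Rps6, a target of growth signalling, stood at 29.9 and 31.2 RPKM in TRAP, against 20.7 and 20.7 RPKM in input and was not called (adjusted p = 0.0877 by limma). Rps2 was the exception at 40.4 and 38.3 RPKM in TRAP, against 98.0 and 98.0 RPKM in input (-1.30). Reads shared with the many pseudogenes of this family make these values uncertain. A window of 30 bases around the annotated start (15 before and 15 from the start on, RefSeq promoters, build GRCm38.p6) held a run of 8 or more bases that are each C or T, read on the transcribed strand, in 26 of 61 ribosomal protein members with a window, in 12.02% of all 6806 members with a window, and in 11.9% of all 27025 windows. The windows of 3 ribosomal protein genes and of the elongation factor gene Eef1a1 are shown for the presence and place of that run, in capitals.
Rpl35: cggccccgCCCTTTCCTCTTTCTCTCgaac
Rps6: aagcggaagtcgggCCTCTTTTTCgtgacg
Rpl41: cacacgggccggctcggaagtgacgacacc
Eef1a1: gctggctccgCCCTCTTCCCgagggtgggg
They lie at chr2:39005117-39005146, chr4:86857353-86857382, chr10:128549154-128549183 and chr9:78481710-78481739, all on the minus strand. Annotated starts may be off by some bases, so the absence of a run in a window says only that these letters are not there. Ribosomal protein members with a run had a median log2 ratio of 0.44 and 12 of 26 called higher, and those without a run 0.36 and 16 of 35. Their distances from the length class were 0.18 with a run and 0.17 without. Eef1a1, with a run in its window, was called lower at 192 and 178 RPKM in TRAP, against 275 and 260.3 RPKM in input, and over all members the medians were -0.15 with a run and -0.10 without.

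Other housekeeping lists had calls in both directions, where 15.1% of all genes tested were called higher and 24.5% lower. The proteasome, the cell's main protease for tagged proteins, had 14 higher [4 to 7] and 7 lower of 46. Psmb6, a catalytic subunit of the core, stood at 310.0 and 323 RPKM in TRAP, against 214 and 217 RPKM in input, and Psmd11, of the regulator's lid, at 16.9 and 18.3 RPKM in TRAP, against 29.3 and 29.3 RPKM in input. Under the rescaling the list had 7 higher and 11 lower. Genes of protein entry into the endoplasmic reticulum and folding had 11 higher [6 to 8] and 5 lower of 40, led by Ost4, a very small subunit of the oligosaccharyl transferase, at 220.1 and 204 RPKM in TRAP, against 108 and 124 RPKM in input. Srp14, of the signal recognition particle, stood at 336 and 369 RPKM in TRAP, against 208 and 208 RPKM in input. Peroxide and thiol defence had 9 higher [3 to 5] and 1 lower of 22. Gpx4, the selenoenzyme that reduces lipid peroxides, stood at 1779.8 and 1915 RPKM in TRAP, against 989.6 and 1000.2 RPKM in input (0.89), and Sod3, the secreted superoxide dismutase, at 8.13 and 9.03 RPKM in TRAP, against 17.1 and 18.2 RPKM in input (-0.96). Of 15 histone genes of the Hist clusters, 9 [4 to 6] were higher and 1 lower, Hist1h4h at 114 and 122 RPKM in TRAP, against 59.2 and 60.2 RPKM in input. Most transcripts of these clusters lack a poly(A) tail, and the RNA was selected for one. Among genes that encode ubiquitin or a relative of it, Rps27a and Fau, whose product is joined to a ribosomal protein, had log2 ratios of 0.40 and 0.41, and Ubb, which encodes ubiquitin alone, -0.43. All 3 were called, and each call was lost in all 4 fits that left out a library.

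**Figure D5:**
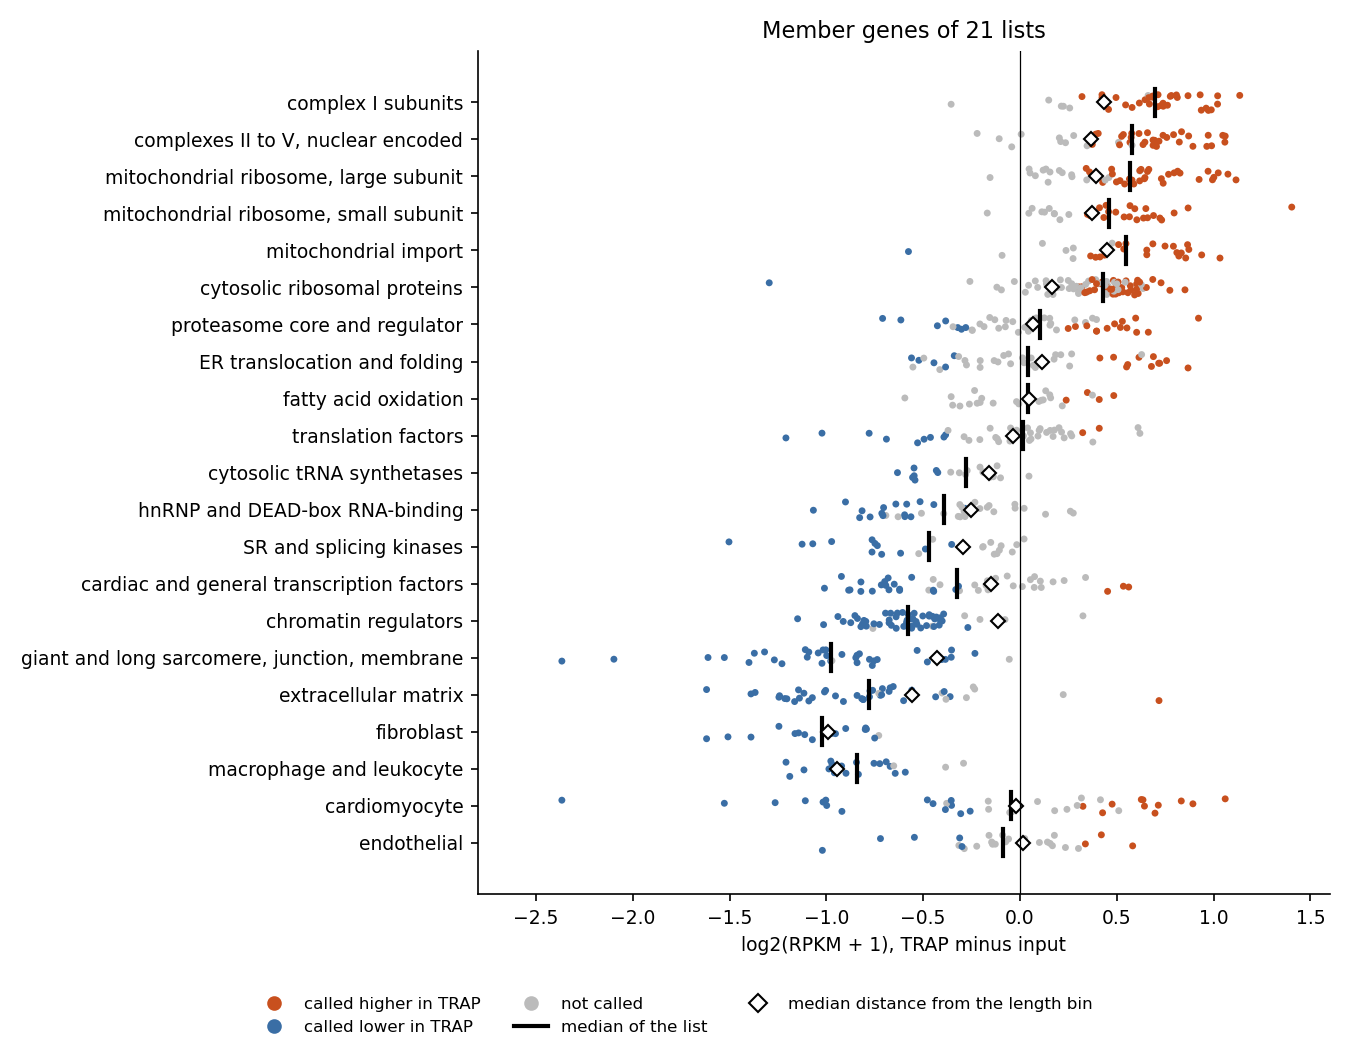
The log2 ratio of TRAP to input of each member gene in 21 gene lists (orange called higher, blue called lower, grey not called), with the list's median (bar) and the median distance of its genes from their length bin (diamond). The lists of complex I, complexes II to V, the mitochondrial ribosome and mitochondrial import lie right of 0 by both measures, long-gene lists lie left of 0 with diamonds closer to 0, and fibroblast and macrophage lists lie left of 0 by both.

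The giant proteins of the sarcomere, the cell junctions and the membrane skeleton were lower in TRAP. Of 36 members of a list picked in part for length, 0 were higher and 34 [25 to 27] lower, with a median of -0.97 and a median distance of -0.43 from the length class. Of them 6 were at 1 RPKM or more only in input, and without these 28 of 30 were lower. The share called lower over all genes tested was 24.5%. Ttn, titin, the spring of the sarcomere and at 106824 bases the longest transcript listed, stood at 0.745 and 0.790 RPKM in TRAP, against 4.20 and 3.99 RPKM in input, log2 ratio -1.53 (SE 0.12, limma, adjusted p = 0.00045). With the length trend removed its adjusted p by limma was 0.602. Ryr2, the calcium release channel, stood at 7.07 and 7.82 RPKM in TRAP, against 17.7 and 16.7 RPKM in input and its call was lost in all 4 fits that left out a library. Plec, plectin, which links filaments to membranes, stood at 2.67 and 2.68 RPKM in TRAP, against 8.75 and 8.64 RPKM in input, and Ahnak, a giant membrane-associated protein, at 3.53 and 3.63 RPKM in TRAP, against 12.7 and 13.3 RPKM in input. After removal of the length trend 19 were called lower and 1 higher.

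Chromatin regulators are another class of long messages, set here against the 24.5% of all genes tested that were called lower. Of 56, 0 were higher and 50 [30 to 36] lower, with a median of -0.58 and a median distance of -0.11 from the length class. Among them 18 were at 1 RPKM or more only in input, and 34 of the other 38 were lower. Chd4, the remodelling enzyme of the NuRD complex, stood at 13.9 and 14.3 RPKM in TRAP, against 23.7 and 22.6 RPKM in input, and Kdm6b, a histone H3 lysine demethylase, at 3.37 and 3.27 RPKM in TRAP, against 7.37 and 8.10 RPKM in input. Hdac5, a deacetylase that restrains hypertrophic genes, stood at 18.9 and 19.5 RPKM in TRAP, against 15.2 and 15.0 RPKM in input and was not called (adjusted p = 0.0649 by limma). With the length trend removed 18 of the list were lower and 1 higher. Transcription factors had 3 higher and 20 lower [12 to 13] of 44. Without 1 at 1 RPKM or more only in input, 3 of 43 were higher and 19 lower. The cardiac factor Nkx2-5 stood at 85.5 and 95.3 RPKM in TRAP, against 59.6 and 64.6 RPKM in input, and Esrra, a driver of mitochondrial genes, at 99.0 and 102 RPKM in TRAP, against 71.3 and 75.4 RPKM in input, both higher, though both calls were lost in every fit that left out a sham library. Klf2, a flow-responsive factor of endothelium, stood at 15.6 and 18.3 RPKM in TRAP, against 30.4 and 30.8 RPKM in input, and Klf6 at 5.14 and 5.81 RPKM in TRAP, against 12.4 and 11.7 RPKM in input. C2H2 zinc finger genes of the Zfp series had 9 higher and 37 lower [16 to 20] of 125, with a median of -0.11 and a median distance of 0.01 from their length class. Of the Zfp genes, 19 were at 1 RPKM or more only in input and 2 only in TRAP. Without those, 9 of 104 were higher and 25 lower, a share lower near that of all genes tested.

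Splicing and other RNA-binding protein lists held a larger share of lower calls than the 24.5% of all genes tested, and the translation factors a smaller one. SR proteins and splicing kinases had 0 higher and 12 lower [7 to 9] of 24 (median -0.47, distance from length class -0.30). Without 1 gene of that list at 1 RPKM or more only in input, 11 of 23 were lower. Luc7l2, a splice site factor of the U1 particle, stood at 5.87 and 6.98 RPKM in TRAP, against 20.6 and 19.4 RPKM in input, log2 ratio -1.50 (SE 0.14, limma, adjusted p = 0.000637). Srsf11 stood at 6.001 and 6.24 RPKM in TRAP, against 15.0 and 14.1 RPKM in input, and Son, a scaffold of nuclear speckles, at 7.01 and 6.66 RPKM in TRAP, against 14.7 and 16.3 RPKM in input. Srsf5, at 16.6 and 16.2 RPKM in TRAP, against 18.0 and 17.8 RPKM in input, was not called. The hnRNP and DEAD-box list had 0 higher and 16 lower [7 to 8] of 37, a share lower of 43.2% (median -0.39, distance -0.25). Hnrnpm stood at 12.3 and 13.4 RPKM in TRAP, against 23.3 and 23.8 RPKM in input, and Ddx5, an RNA helicase, at 9.56 and 12.7 RPKM in TRAP, against 24.4 and 24.0 RPKM in input, whose call was lost in all 4 fits that left out a library. Of 44 translation factors 2 were higher and 9 [5 to 6] lower. The median of that list was 0.02, and -0.13 under the rescaling and -0.07 under quantile normalization. Its lower calls were then 13 and 11 of 44, where 3738 and 1820 of the 10550 members were lower. The lower ones included Eif3a, the largest subunit of initiation factor 3, at 17.2 and 18.2 RPKM in TRAP, against 44.5 and 40.05 RPKM in input, log2 ratio -1.21 (SE 0.11, limma, adjusted p = 0.000599), Pabpc4, a poly(A) binding protein, at 249 and 265 RPKM in TRAP, against 401 and 429 RPKM in input, and Eif4ebp2, a brake on cap recognition, at 4.93 and 5.90 RPKM in TRAP, against 9.53 and 10.5 RPKM in input. Eef1a2, the muscle form of the elongation factor, stood at 842 and 796 RPKM in TRAP, against 832 and 826 RPKM in input and the fractions overlapped, whereas Eef1a1 was lower. The call of Pabpc4 held in 2 of the 4 fits that left out a library, and those of Eif3a and Eif4ebp2 in all 4.

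Ferritin messages carry a hairpin, the iron responsive element, on which iron regulatory proteins block initiation when iron is scarce. Fth1, the heavy chain, stood at 729 and 688 RPKM in TRAP, against 2545 and 2657 RPKM in input, log2 ratio -1.88 (SE 0.10, limma, adjusted p = 8.14e-05), and Ftl1, the light chain, at 37.9 and 33.7 RPKM in TRAP, against 122 and 122 RPKM in input, log2 ratio -1.74 (SE 0.16, limma, adjusted p = 0.000677). Both are under 1000 bases and lay -2.19 and -2.06 from their length class. Epas1, another message with such an element, stood at 17.7 and 17.4 RPKM in TRAP, against 34.9 and 33.4 RPKM in input (-0.92), while Sdhb, placed in this list for its element in flies, was higher at 1697 and 1716 RPKM in TRAP, against 1147 and 1146 RPKM in input (0.57). Of 9 members of that list 1 was higher and 4 lower, a share lower of 44.4% against 24.5% of all genes tested. Without 1 member at 1 RPKM or more only in input, 1 of 8 was higher and 3 lower. Alas2 was among the lower ones, and it is also counted among the erythroid genes, all 6 of which were lower. A list of stress genes drawn up around upstream reading frames that hold back translation in unstressed cells had 0 higher and 6 lower of 14. That is 42.9% lower, against 24.5% of all genes tested, and not all of these calls held when a sham library was left out. Without 1 stress gene at 1 RPKM or more only in input, 5 of 13 were lower. Whether each gene carries such a frame was not tested. Among the lower ones, Atf5 stood at 41.7 and 39.7 RPKM in TRAP, against 61.7 and 62.9 RPKM in input. Txnip, a brake on thioredoxin, stood at 45.9 and 48.1 RPKM in TRAP, against 83.3 and 86.1 RPKM in input.

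Rows of the table named for microRNAs number 661, and 15 were members. The libraries were made from poly(A) RNA cut to fragments longer than a mature microRNA, so these reads come from longer transcripts across the hairpin, such as a primary transcript or a host gene, and say nothing of the mature microRNA. Of the 15, 1 was called higher and 8 lower, and 6 of them were at 1 RPKM or more only in input, which the level rule admits through input alone. Without these, 1 of 9 was higher and 2 were lower. Among all genes tested 15.1% were called higher and 24.5% lower, so these 9 lay near those shares. Mature sequences (RefSeq, GRCm38.p6, 11 of the 15 matched) are shown for 4 genes called lower in TRAP, all of them among those at 1 RPKM or more only in input, and for Mir208b, which lies in a myosin heavy chain gene and was not called, with the seed, bases 2 to 8, in capitals.
mmu-miR-24-3p: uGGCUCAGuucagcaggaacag
mmu-miR-142a-5p: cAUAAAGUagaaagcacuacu
mmu-miR-339-5p: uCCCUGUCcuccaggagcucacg
mmu-miR-345-5p: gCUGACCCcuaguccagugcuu
mmu-miR-208b-3p: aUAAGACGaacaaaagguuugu
They lie at chr8:84208875-84208896 (Mir24-2, plus strand), chr11:87756867-87756887 (Mir142, plus), chr5:139369708-139369730 (Mir339, minus), chr12:108836989-108837010 (Mir345, plus) and chr14:54975710-54975731 (Mir208b, minus), and no 2 of these 5 share a seed. Mir24-2, from a cluster read as 1 long primary transcript, held 0 and 2 reads in TRAP, against 34 and 20 reads in input. Mir142, a gene of blood cells, held 0 and 2 reads in TRAP, against 14 and 6 reads in input, and Mir339 3 and 0 reads in TRAP, against 24 and 20 reads in input. Mir345 held 0 and 0 reads in TRAP, against 6 and 6 reads in input, where a count of 0 allows up to 3 reads per library. Mir133a-2, of a muscle microRNA family, held 7 and 10 reads in TRAP, against 121 and 95 reads in input, which is 1.90 and 2.30 RPKM in TRAP, against 23.8 and 27.6 RPKM in input (limma, adjusted p = 3.40e-05). Mir208b held 28 and 34 reads in TRAP, against 33 and 31 reads in input, so its fractions overlapped. Such counts are small, and intervals from them would cover counting error only. Among small RNAs of Cajal bodies, which guide the modification of spliceosomal RNA in the nucleus, Scarna17 held 23 and 25 reads in TRAP, against 332 and 268 reads in input, and Scarna2 4 and 10 reads in TRAP, against 259 and 138 reads in input. Hosts of small nucleolar RNAs had 2 higher [0 to 0] and 2 lower of 9, Gas5 at 62.3 and 46.8 RPKM in TRAP, against 50.8 and 50.3 RPKM in input. Each share of the host list was 22.2%, beside 15.1% higher and 24.5% lower over all genes tested.

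Markers of the cell types of the heart did not all stand at the same ratio. In bulk RNA, unequal recovery of a cell type in TRAP and fewer ribosomes on its messages cannot be told apart, and neither was tested. The shares called over all genes tested were 15.1% higher and 24.5% lower. Summed over the list, 38 cardiomyocyte markers came to 212604 and 205796 RPKM in TRAP, against 142069 and 141994 RPKM in input, with 11 higher and 15 lower [8 to 9] of 38 called and a median of -0.05. Cox7a1 and Cox6a2, 2 of the respiratory chain genes described above, are the most abundant genes of that list. Without them, a choice made after the values were seen, the sum came to 117559 and 114191 RPKM in TRAP, against 95199 and 95448 RPKM in input. The endothelial markers came to 1388 and 1429.8 RPKM in TRAP, against 1250.0 and 1311 RPKM in input (3 higher and 5 lower [3 to 3] of 27). Those shares, 11.1 and 18.5%, lay below the shares of all genes tested. Though the endothelial sum was above input, the median log2 ratio was -0.09, with 16 of 27 below 0. That median was -0.23 with rescaled totals and 0.02 with quantile normalization. Fibroblast markers came to 320.4 and 338 RPKM in TRAP, against 788 and 781 RPKM in input (0 higher and 15 lower [13 to 14] of 16), with Gsn, gelsolin, at 107 and 112 RPKM in TRAP, against 313 and 313 RPKM in input and Dcn, decorin, at 70.9 and 73.3 RPKM in TRAP, against 142 and 139 RPKM in input, a call that no fit without 1 of the libraries kept. Macrophage and leukocyte markers came to 508 and 512 RPKM in TRAP, against 886 and 889 RPKM in input (0 higher and 17 lower [13 to 14] of 20), with Cd74, the invariant chain of antigen presentation, at 90.8 and 85.8 RPKM in TRAP, against 181 and 171 RPKM in input. Smooth muscle and pericyte markers came to 165 and 185 RPKM in TRAP, against 208 and 209.8 RPKM in input (0 higher and 6 lower [3 to 3] of 11), where Acta2, smooth muscle actin, was not called at 108 and 124 RPKM in TRAP, against 105 and 110.3 RPKM in input. Erythroid genes, of a lineage that loses its ribosomes as it matures, came to 204 and 207 RPKM in TRAP, against 2560.1 and 2490.3 RPKM in input (0 higher and 6 lower [6 to 6] of 6). Of the 5 epicardial members all were under 1 RPKM in both TRAP libraries, so the level rule itself made them differ, and of the adipocyte and Schwann cell lists 1 and 0 genes were members. Some other marker lists also held members at 1 RPKM or more only in input. With such members left out, 4 of 4 erythroid and 15 of 18 macrophage and leukocyte markers were lower. So were 14 of 15 fibroblast and 5 of 10 smooth muscle and pericyte markers. Cardiomyocyte markers then had 11 higher and 14 lower of 37. No marker of these lists was at 0 in all 4 libraries among the 21 macrophage and 17 fibroblast genes of the table. Extracellular matrix genes had 1 higher and 35 lower [27 to 28] of 43, with a median of -0.78 and -0.56 from their length class. Without 2 matrix genes at 1 RPKM or more only in input, 1 of 41 was higher and 33 lower. Sparc, a matrix glycoprotein, stood at 181 and 181 RPKM in TRAP, against 287 and 290.4 RPKM in input, and Col15a1, a basement membrane collagen, at 4.11 and 3.94 RPKM in TRAP, against 11.9 and 12.1 RPKM in input. The part that unequal recovery of cell types plays in the ratios of other genes was not tested. The length slope was -0.21 with all marker genes left out, against -0.20 with them.

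The ratios of sham hearts were set beside those of hearts after aortic banding and without surgery, which share no library with them. Of 1752 members called higher in sham hearts, 1728 had a ratio above 0 after banding, where 43.4% of all members did, and of 2613 called lower 2603 were below 0, where 56.6% of all did. In the single pair without surgery 92.8% of the higher genes were above 0, against 32.8% of all members, and 98.7% of the lower genes were below 0, against 67.2%. The difference between the sham and the band ratio was called for 0 members by limma, where 0% of the 11654 genes tested were called, and 490 members (4.64%) had an unadjusted p under 0.05. limma's voom on recovered reads also called 0. Single genes were close in some cases and apart in others, with no tested difference. Ybx1 had log2 ratios of -2.99 in sham and -3.02 in band hearts, Fth1 -1.88 and -2.25, Mrps34 1.40 and 0.74, and Gng5 1.17 and 1.99. Complex I had a median of 0.70 in sham hearts, 0.69 in band hearts and 0.73 in the pair without surgery. The length slope was -0.20 in sham hearts, -0.18 and -0.17 in the pairs of band libraries, -0.26 without surgery, and -0.04 over the same genes in Tie2 hearts, whose TRAP and input also differ in cell type.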

How the data were processed

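Per the labels' protocols, pooled input or TRAP RNA went through 2 rounds of poly(A) selection, was copied with random hexamers and was cut to a narrow size range, with no strand-marking step named. Per the submitters' processing notes, CASAVA 1.8.2, TopHat 1.4 and HTSeq 0.5.3 were used with build NCBIM37, and no further settings are given in the sources used here. The authors deposited RPKM values per gene with 1 transcript ID and length each, in a table of 12 libraries whose columns name the group and a number. The labels hold 8 entries for the 4 sham libraries (a number with l1 or l2, whose meaning is not given), so columns were tied to groups and not to single entries, and 0 columns of other samples were left aside.

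The values were recovered as whole reads within 0.02 of a read for 233410 of 233410 positive values, which gave the depths. Log2(RPKM + 1) of the 11654 genes that reached 1 RPKM in 2 or more of the 12 libraries was fitted by group with limma 3.58.1 (trend, R 4.3.3), with Benjamini-Hochberg adjustment over all of them and a threshold of 0.05. The log2 ratio is TRAP minus input on that scale and understates the change of low genes. A gene's distance from its length class is its ratio minus the median of its length bin. Alternatives were rescaled totals, quantile normalization, another pseudocount and filter, fewer libraries in the fit, voom on recovered reads, a replicate block, each library's smooth trend on log2 length removed, and leaving out each sham library. The fit was tested on simulated data. Summaries used Python 3.11.15 with numpy 2.4.6 and pandas 2.3.3.

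The members, gene lists and tests were chosen with earlier results of these data known. Genes were named by rule. The rule took the 12 called genes with the most positive and most negative ratio at 500 bases or longer and 5 RPKM or more, without mitochondrially encoded, haemoglobin, Rik and Gm genes, then in each list up to 4 called genes with the largest ratios and the 2 most abundant, in each length bin the 2 most abundant and the extremes at both ends, and the 8 genes farthest above and below their length bin. Ttn, Rps6, Eef1a1 and the microRNA genes other than Mir133a-2 were chosen outside it, after their values were seen. Some genes that the rule picked are not reported here. 16 members carry symbols in the form of a date and are counted without being named.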

Additional observations from a re-analysis of the deposited data

How the results depend on the processing

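Of 10550 members, 1752 were higher and 2613 lower. The counts of higher members were 1107 with totals that left out abundant genes, and 670 to 851 with 1 sham library left out. The counts of lower members were 1465 with a filter of 5 RPKM, which tests fewer genes, and 1195 to 1449 with 1 sham library left out. Under every other alternative both counts stayed within 1.5 times. The median log2 ratio of the members, -0.07, was -0.20 with rescaled totals, 0.041 with quantile normalization and 0.049 with the filter of 5 RPKM. The length slope of -0.20 was -0.16 at 20 RPKM or more, -0.069 with no minimum length, -0.26 at 1000 bases or longer and -0.15 with quantile normalization, and -0.22 to -0.19 with 1 sham library left out. The cause of these moves was not tested. The difference between sham and band ratios was called for 0 members, and for 2 with a pseudocount of 0.1. Deviations of same-numbered sham libraries correlated at -0.17 and of band libraries at 0.03. The labels give only a shared number, and these correlations cannot show whether same-numbered libraries came from the same RNA pool. With that number as a replicate block the counts were 1579 higher and 2385 lower. With the sham numbers crossed, an alternative chosen after seeing the data, they were 1627 and 2505. The medians of 7 of 48 gene lists changed sign under each of the 2 other scalings, and 6 of 48 when taken as distance from the length bin. All 30 genes named for the largest ratio or distance kept their call under both scalings and the block, and Oaz1 lost its call with the length trend removed (limma, adjusted p = 0.0716). Slopes on coding length were not run. Depth limits genes near 1 RPKM, where the added 1 RPKM shrinks ratios.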

Other observations

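Transport genes had calls in both directions. The pump genes below had 23.5% higher and 17.6% lower, and the carriers 20 and 13.3%. Over all genes tested 15.1% were called higher and 24.5% lower. Of 17 subunits of the proton pump of lysosomes, 4 [2 to 3] were higher in TRAP and 3 lower (limma, adjusted p under 0.05). Atp6v0b, of the membrane ring, stood at 161 and 184 RPKM in TRAP, against 98.4 and 96.8 RPKM in input, and Atp6v1g1, of the stalk, at 315 and 327 RPKM in TRAP, against 194 and 196 RPKM in input. Atp6v1b2, of the catalytic head, stood at 18.0 and 17.2 RPKM in TRAP, against 26.0 and 25.0 RPKM in input. The first pair lay above input in both TRAP libraries and the third below. Of 30 carriers of the inner mitochondrial membrane 6 [3 to 4] were higher and 4 lower. Without 2 carriers at 1 RPKM or more only in input, 6 of 28 were higher and 2 lower. Slc25a33, a pyrimidine nucleotide carrier, stood at 13.5 and 12.2 RPKM in TRAP, against 7.60 and 7.89 RPKM in input, and Slc25a11, the oxoglutarate carrier, at 400.3 and 435 RPKM in TRAP, against 278 and 295 RPKM in input. Slc25a4, the abundant ATP and ADP exchanger, stood at 4012 and 4037 RPKM in TRAP, against 3438 and 3491 RPKM in input and was not called (adjusted p = 0.0992 by limma). The medians of both lists change sign with the scaling. For the pump the median was 0.05 as deposited and -0.09 with rescaled totals, and for the carriers -0.09 as deposited and 0.03 with quantile normalization.

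Chaperones of the heat shock and DNAJ families had 13 higher and 16 [5 to 8] lower of 60. Those shares, 21.7 and 26.7%, stand beside 15.1 and 24.5% over all genes tested. Without 2 chaperone genes at 1 RPKM or more only in input, 13 of 58 were higher and 14 lower. Hspb7, a small heat shock protein of heart muscle, stood at 1384 and 1479 RPKM in TRAP, against 1001 and 979 RPKM in input. Dnajb1, a stress-induced partner of HSP70, stood at 3.64 and 3.41 RPKM in TRAP, against 6.34 and 7.23 RPKM in input. Of 13 histone genes listed for polyadenylated transcripts, 5 of which lie in the Hist clusters and are also counted among the Hist genes above, 6 [2 to 4] were higher and 0 lower. H2afv, a variant of the H2A.Z type, stood at 76.9 and 87.5 RPKM in TRAP, against 42.4 and 49.3 RPKM in input, and H1f0, a linker histone of resting cells, at 76.6 and 76.6 RPKM in TRAP, against 46.0 and 49.8 RPKM in input. Of 19 G protein subunits Gng5 was the 1 called higher, and 6 [0 to 3] were lower. Gna12 stood at 27.5 and 27.5 RPKM in TRAP, against 40.5 and 39.0 RPKM in input, a call kept in 3 of the 4 fits that left out a library.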
